A study of Mus musculus with 15 samples.

Results

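The leukocyte marker genes described here are 10 genes used to recognise white blood cells, namely Ptprc, Csf1r, Cd14, Cd3e, Laptm5, Spi1, Cd68, Tyrobp, Fcer1g and Adgre1. Each was taken as the array probe set whose Entrez Gene ID belongs to that symbol, which gave 10 of the 25206 probe sets measured, 1 per gene. They were listed by name, with earlier results of these data known. The series follows a mouse induced pluripotent stem cell (iPSC) line with an Acta2hrGFP reporter, in which green fluorescence (GFP) reports Acta2, the smooth muscle actin gene, on its way to smooth muscle. The 5 groups of 3 samples were undifferentiated iPSC at day 0, cells sorted for the mesodermal receptor Kdr (Flk-1) at day 5, the GFP+ and the GFP- fraction of a sort at day 13, and, as the study's positive control, primary GFP+ smooth muscle cells of mouse aorta. All 5 groups carry the reporter. GFP is the only sort named for the aortic cells, and no step that removes leukocytes is named. Whether the 3 cultures of a stage came from separate thaws or clones, and the age and number of the mice behind the aortic samples, are not given in the sources used here. The p-values therefore measure the spread between these samples, which may be technical.

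Levels are log2 values on Affymetrix Mouse Gene 2.0 ST arrays, so a difference of 1 is a doubling of signal and levels of different probe sets cannot be ranked against each other. Array medians lay between 4.08 and 4.29, and with 3 arrays a group their number limits the precision. The stage genes were highest where the labels put them: Pou5f1, a pluripotency factor, averaged 6.57 at day 0, Kdr averaged 9.64 at day 5, and Myh11, smooth muscle myosin, averaged 11.03 in the aorta. Myh11 averaged 4.64 in day 13 GFP+ cells and 4.36 in day 13 GFP- cells. Acta2 averaged 11.32 in day 13 GFP+ cells and 10.67 in day 13 GFP- cells, a difference of 0.65 that did not pass the test (limma, adjusted p = 0.151).

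Leukocytes arise from blood stem cells, and their identity rests on a small set of transcription factors, of which PU.1 (Spi1) switches on many myeloid genes. Macrophages sense CSF1 through Csf1r, detect bacterial lipopolysaccharide through Cd14, and signal through short adaptors such as Tyrobp and Fcer1g, whose ITAM motifs recruit the kinase Syk. The normal aorta holds resident macrophages and a few lymphocytes, mostly in its outer layer, while pluripotent cells and smooth muscle are not known for most of these genes. In these bulk RNA samples a change in the number of leukocytes and a change in RNA per cell cannot be told apart.

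By group mean the aorta was the highest group for 7 of the 10 genes (Ptprc, Csf1r, Cd14, Cd3e, Spi1, Tyrobp and Adgre1). Undifferentiated iPSC had the highest mean for 3 (Laptm5, Cd68 and Fcer1g). For Spi1, Tyrobp, Adgre1 and Fcer1g the aorta and iPSC did not differ past the threshold (limma, adjusted p from 0.105 to 0.636). Which of these groups is the higher is therefore not settled for them. No member was highest in the day 5 or day 13 cells. The lowest group mean was at day 5 for 6 members, in day 13 GFP- cells for Cd3e, Fcer1g and Adgre1, and in day 13 GFP+ cells for Ptprc. Averaged over the 10 genes, the samples lay at 4.79 to 4.91 at day 0, 3.47 to 3.60 at day 5, 3.76 to 3.91 in day 13 GFP+ cells, 3.70 to 3.82 in day 13 GFP- cells and 4.83 to 5.46 in the aorta. The day 0 average includes Laptm5, whose mean was 9.15 there and 5.99 in the aorta, so it does not stand for most members.

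**Figure D1:**
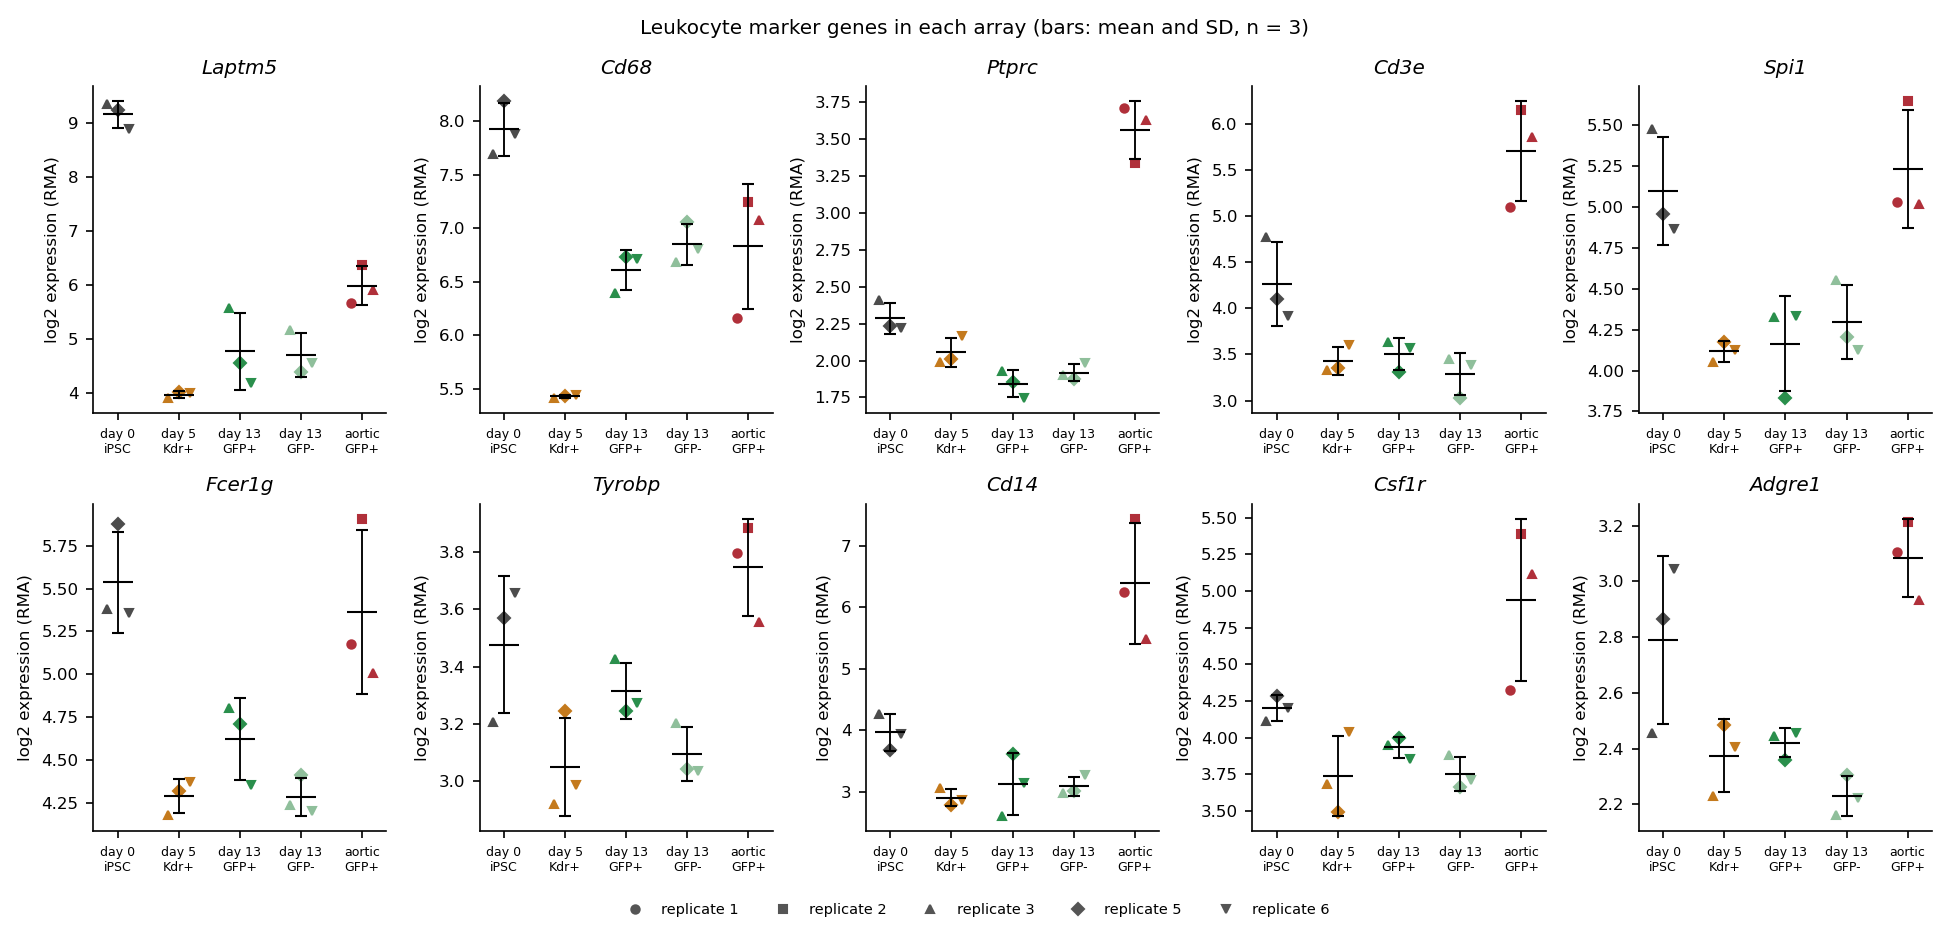
Levels of the 10 leukocyte marker genes (log2, 1 panel a gene) in the 5 groups, from day 0 iPSC at the left to the aortic cells at the right; points are samples, and bars are group means with the SD (n = 3). Laptm5 stands at 8.87 to 9.35 in iPSC and below 6.5 in every other sample, and Ptprc stands above 3 in the aorta alone.

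As a description of the low end of these arrays, 1082 probe sets of olfactory receptors, genes of the nasal epithelium, were summarised on each array. Their 95th percentile lay at 3.75 to 4.01 at day 0, 3.61 to 3.80 at day 5, 3.72 to 3.78 in day 13 GFP+ cells, 3.65 to 3.70 in day 13 GFP- cells and 3.97 to 4.06 in the aorta. It was thus higher in the aorta than at day 5 or day 13, the same direction as most members, and its part in the members' aortic levels was not tested beyond the centring given with the day 13 and aortic comparison. Probe sets differ in their response, so this is no detection call. Laptm5, Cd68, Fcer1g and Spi1 lay above that level in all 15 samples, and Ptprc, Tyrobp and Adgre1 in none, the aorta included. Cd14 and Cd3e lay above it in all 3 aortic samples and in none of the day 5 and day 13 samples, and at day 0 Cd14 did so in 1 sample and Cd3e in 2. Csf1r lay above it in 13 of 15. For values near this low end a ratio of signals is not a ratio of transcript amounts. The differences of Ptprc, Tyrobp, Adgre1, Cd14, Cd3e and Csf1r are therefore given in log2 units of signal. Folds given for other members are ratios of signal too.

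Laptm5 and Cd68 encode proteins of the late endosome and lysosome. Laptm5 is a small membrane protein known in blood cells for sending immune receptors to lysosomal breakdown, and Cd68 is a heavily glycosylated protein widely used to stain macrophages, although other cells with many lysosomes carry it too. Their promoter windows are shown with those of Fcer1g and Ptprc. Laptm5, Cd68 and Fcer1g had their highest group mean in iPSC, and Ptprc had its highest in the aorta. Fcer1g was not called between iPSC and aorta. Each is the 250 bases before a RefSeq gene start (GRCm38.p6), read 5′ to 3′ on the gene's strand, and capitals mark a match to GAGGAA or its reverse complement TTCCTC, a core of PU.1 sites.
Laptm5, chr4:130913066-130913315, + strand: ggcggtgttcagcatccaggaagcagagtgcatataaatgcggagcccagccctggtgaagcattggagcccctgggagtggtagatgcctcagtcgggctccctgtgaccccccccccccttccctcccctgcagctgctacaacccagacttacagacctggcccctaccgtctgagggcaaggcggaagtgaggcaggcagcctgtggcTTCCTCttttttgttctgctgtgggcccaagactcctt
Cd68, chr11:69666171-69666420, - strand: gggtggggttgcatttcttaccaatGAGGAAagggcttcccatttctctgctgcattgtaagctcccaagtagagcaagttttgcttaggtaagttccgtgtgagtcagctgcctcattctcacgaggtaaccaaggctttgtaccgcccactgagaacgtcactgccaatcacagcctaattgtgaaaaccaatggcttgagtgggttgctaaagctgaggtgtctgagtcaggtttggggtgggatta
Fcer1g, chr1:171234350-171234599, - strand: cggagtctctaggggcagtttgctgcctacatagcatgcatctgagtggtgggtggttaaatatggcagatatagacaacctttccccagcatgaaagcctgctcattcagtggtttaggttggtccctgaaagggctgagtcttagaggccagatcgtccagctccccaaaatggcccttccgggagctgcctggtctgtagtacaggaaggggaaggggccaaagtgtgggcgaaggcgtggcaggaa
Ptprc, chr1:138175306-138175555, - strand: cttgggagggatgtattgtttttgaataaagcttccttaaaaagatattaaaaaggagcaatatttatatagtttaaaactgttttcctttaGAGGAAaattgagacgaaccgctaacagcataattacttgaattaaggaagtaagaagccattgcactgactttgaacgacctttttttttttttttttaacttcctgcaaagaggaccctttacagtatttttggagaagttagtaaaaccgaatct
Counted from the gene start, the Laptm5 match lies on the opposite strand at -38 to -33, the Cd68 match at -225 to -220 and the Ptprc match at -158 to -153, while the Fcer1g window holds none. Ptprc has a second, overlapping window (chr1:138175127-138175376), which holds none. Cd3e also holds 1 match, on the opposite strand at -100 to -95. On either strand the 6 letters occur in 23.3% of the 32851 mouse promoter windows searched, so a match is common. The octamer ATGCAAAT (reverse complement ATTTGCAT), the letters bound by Pou5f1 and its relatives, occurs in 1.6% of windows on either strand. None of the 6 windows of Ptprc, Fcer1g, Laptm5, Cd3e and Cd68 holds it on either strand. Windows of the other members are not reported here.

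Laptm5 had the widest range of the 10 genes. It measured 9.35, 9.24 and 8.87 at day 0, 3.90, 4.02 and 4.0 at day 5, 5.57, 4.56 and 4.19 in day 13 GFP+ cells, 5.16, 4.39 and 4.55 in day 13 GFP- cells, and 5.67, 6.37 and 5.91 in the aorta. The iPSC stood above every other sample and the aortic cells above every day 5 and day 13 sample. Replicate 3 was the highest of both day 13 sorts. Laptm5 was lower at day 5 than at day 0 (log2 difference -5.18, SE 0.292, adjusted p = 2.08e-09), with the day 5 values close to the low end of the arrays. It was 8.98-fold higher at day 0 than in the aorta (adjusted p = 1.49e-07).

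Cd68 shared the iPSC peak and, unlike the other members, was not called different between the aorta and either day 13 sort. Its levels were 7.70, 8.19 and 7.88 at day 0, 5.41, 5.43 and 5.44 at day 5, 6.40, 6.73 and 6.71 in day 13 GFP+ cells, 6.68, 7.06 and 6.81 in day 13 GFP- cells, and 6.16, 7.24 and 7.08 in the aorta. Day 5 was the lowest group without overlap, and the aortic range enclosed both day 13 sorts. Cd68 fell by 2.49 at day 5 relative to day 0 (SE 0.224, adjusted p = 3.67e-07) and was 2.27-fold higher in day 13 GFP+ cells and 2.68-fold higher in day 13 GFP- cells than at day 5 (adjusted p = 0.000545 and 0.000153). Against the aorta it was higher at day 0 (2.13-fold, adjusted p = 0.000665), and it differed by -0.22 in day 13 GFP+ cells (SE 0.224, adjusted p = 0.483) and by 0.02 in day 13 GFP- cells (adjusted p = 0.949). Without aortic sample 1, the lowest of the 3 aortic values, the difference of the GFP+ cells was -0.55 and passed (adjusted p = 0.0164).

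Other lysosomal genes moved in the direction of Cd68 in some comparisons and not in others. Of 21 measured lysosomal genes, 12 were lower and 2 higher at day 5 than at day 0, with a median difference of -0.53 against -0.01 over all probe sets. Among them Scarb2, the carrier of glucocerebrosidase, fell by 1.57. In both day 13 sorts 16 of the 21 were higher than at day 5 and 0 lower, with medians of 1.18 in GFP+ and 1.03 in GFP- cells against -0.00 and -0.03 over all probe sets. Scarb2 was higher by 3.24 in GFP+ cells and by 2.31 in GFP- cells. The mean level of the list was 7.99 to 8.26 at day 0, 7.45 to 7.58 at day 5, 8.62 to 8.96 in GFP+ cells, 8.39 to 8.73 in GFP- cells and 8.26 to 8.34 in the aorta. At day 13 against day 0 the directions parted: 14 lysosomal genes were higher and 2 lower in GFP+ cells, and 12 higher and 3 lower in GFP- cells, while Cd68 was lower in both sorts (-1.31, adjusted p = 0.000176 in GFP+ and -1.07, adjusted p = 0.00121 in GFP- cells). How far Cd68 follows lysosome content and not macrophages was not tested.

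Fcer1g and Tyrobp are the 2 ITAM adaptors among the members. Fcer1g is the gamma chain shared by Fc receptors, and Tyrobp (DAP12) partners receptors such as Trem2. Fcer1g measured 5.38, 5.88 and 5.35 at day 0, 4.18, 4.32 and 4.37 at day 5, 4.80, 4.71 and 4.35 in day 13 GFP+ cells, 4.24, 4.41 and 4.20 in day 13 GFP- cells, and 5.17, 5.91 and 5.01 in the aorta. The iPSC and aortic ranges overlapped, and both lay above all 9 day 5 and day 13 samples. Fcer1g was 2.37-fold lower at day 5 than at day 0 (adjusted p = 0.000223), and its difference of 0.17 between day 0 and the aorta did not pass (SE 0.208, adjusted p = 0.529).

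Tyrobp varied little, with group means within 0.70 of each other. It measured 3.21, 3.57 and 3.66 at day 0, 2.92, 3.24 and 2.99 at day 5, 3.43, 3.24 and 3.27 in day 13 GFP+ cells, 3.20, 3.04 and 3.04 in day 13 GFP- cells, and 3.80, 3.89 and 3.56 in the aorta. Its day 5 and day 0 ranges overlapped. Of the receptors and kinases that work with these adaptors, 3 of 16 were lower at day 5 than at day 0 and none higher. Plcg2, a phospholipase, fell by 2.25, Syk fell by 1.26 and Lat, a scaffold of antigen receptor signalling, fell by 0.93. Over all probe sets 13.9% were lower, so this count is near that share. At day 0 against the aorta 4 of the 16 were higher, Plcg2 by 2.67, Lat by 1.21, Syk by 0.93 and Trem2 by 0.49, and 2 were lower. Over all probe sets 24.4% were higher and 23.3% lower, so these counts do not exceed what all genes showed by much.

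Spi1, which encodes PU.1, was close in iPSC and aorta. It measured 5.48, 4.96 and 4.87 at day 0, 4.05, 4.18 and 4.12 at day 5, 4.33, 3.83 and 4.34 in day 13 GFP+ cells, 4.56, 4.20 and 4.13 in day 13 GFP- cells, and 5.03, 5.65 and 5.02 in the aorta. All 9 sorted day 5 and day 13 samples lay below all iPSC and aortic samples. Spi1 was 1.98-fold lower at day 5 than at day 0 (adjusted p = 0.0015), 2.09-fold lower in day 13 GFP+ cells than in the aorta (adjusted p = 0.000604) and 1.91-fold lower in day 13 GFP- cells than in the aorta (adjusted p = 0.00157). Its difference between day 0 and the aorta was -0.13 (SE 0.204, adjusted p = 0.636).

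Csf1r, the receptor for CSF1 and IL-34 on which macrophages depend, measured 4.11, 4.29 and 4.20 at day 0, 3.68, 3.50 and 4.04 at day 5, 3.95, 4.0 and 3.86 in day 13 GFP+ cells, 3.88, 3.67 and 3.71 in day 13 GFP- cells, and 4.32, 5.39 and 5.11 in the aorta. The aortic samples were the highest, the first of them by a narrow margin. It was lower than in the aorta at day 0 (-0.74, adjusted p = 0.00807) and in day 13 GFP+ cells (-1.01, adjusted p = 0.00125). No step between day 0, day 5 and day 13 passed in this fit. At day 5 against day 0 the difference of -0.46 passed in 3 other fits, those with array weights (adjusted p = 0.0377), with the replicate block (adjusted p = 0.0268) and with only these groups (adjusted p = 0.0382). Its ligand gene Csf1 averaged 6.73 in day 13 GFP+ and 6.67 in day 13 GFP- cells against 4.65 at day 5, which was higher by 2.09 and by 2.02. Il34, the other ligand, was lower in day 13 GFP- cells than in the aorta (log2 difference -1.65).

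Cd14, the co-receptor that hands lipopolysaccharide to Tlr4, measured 4.27, 3.67 and 3.94 at day 0, 3.05, 2.78 and 2.86 at day 5, 2.60, 3.61 and 3.14 in day 13 GFP+ cells, 2.98, 3.01 and 3.27 in day 13 GFP- cells, and 6.25, 7.44 and 5.49 in the aorta. Every aortic sample exceeded every other sample by more than 1 log2 unit. It was lower than in the aorta at day 0 (-2.43, adjusted p = 2.84e-05), in day 13 GFP+ cells (-3.28, adjusted p = 2.42e-06) and in day 13 GFP- cells (-3.31, adjusted p = 1.76e-06), with every day 13 value at the low end of the arrays. Of 14 other genes of the lipopolysaccharide pathway, 10 were lower at day 0 than in the aorta and none higher. Over all probe sets 23.3% were lower. Tlr4, the signalling receptor, averaged 2.44 at day 0 and 6.74 in the aorta (difference -4.29), and the differences were -3.27 for Lbp, which binds the lipopolysaccharide, and -2.87 each for Ly96, the partner of Tlr4, and the adaptor Myd88. At day 13 Ly96 was not called against the aorta (5.95 in GFP+ cells, 5.24 in GFP- cells and 5.76 in the aorta), while Tlr4 was lower in GFP+ cells (-3.65) and in GFP- cells (-3.83).

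Cd3e, a chain of the T cell receptor complex, measured 4.77, 4.10 and 3.91 at day 0, 3.33, 3.36 and 3.60 at day 5, 3.63, 3.31 and 3.57 in day 13 GFP+ cells, 3.45, 3.02 and 3.38 in day 13 GFP- cells, and 5.10, 6.15 and 5.86 in the aorta. The aortic samples were the highest, and iPSC lay above all day 5 and day 13 samples. It was lower than in the aorta at day 0 (-1.44, adjusted p = 0.000135), in day 13 GFP+ cells (-2.20, adjusted p = 3.4e-06) and in day 13 GFP- cells (-2.42, adjusted p = 9.77e-07), again with every day 13 value at the low end. Its partner Cd3g was also lower than in the aorta at day 0 (-0.69), in GFP+ cells (-0.89) and in GFP- cells (-0.81). Cd3d, which the naming rule did not pick, differed from the aorta by -0.04 at day 0 and -0.26 in GFP+ cells, neither past the threshold. Of 10 genes of the CD3 complex and of the kinases that Ptprc acts on, 3 were higher and 2 lower in day 13 GFP+ cells than in the aorta. Among them were the kinase Fyn (1.80) and the phosphatase Ptpn22 (-0.92). Over all probe sets 19.5% were higher and 17.7% lower.

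Ptprc, the CD45 phosphatase by which leukocytes are generally told from other cells, measured 2.41, 2.23 and 2.22 at day 0, 1.99, 2.01 and 2.17 at day 5, 1.93, 1.86 and 1.74 in day 13 GFP+ cells, 1.90, 1.87 and 1.98 in day 13 GFP- cells, and 3.71, 3.34 and 3.63 in the aorta. The 3 aortic samples stood more than 0.9 above all 12 others. It was lower than in the aorta at day 0 (-1.27, SE 0.121, adjusted p = 2.08e-07), in day 13 GFP+ cells (-1.72, adjusted p = 1.63e-08) and in day 13 GFP- cells (-1.64, adjusted p = 2.22e-08). All 15 values of this probe set lay at the low end of the arrays. Ptprc was not called between any neighbouring stages.

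Adgre1, an adhesion receptor widely used to mark mouse macrophages, measured 2.46, 2.87 and 3.04 at day 0, 2.23, 2.49 and 2.41 at day 5, 2.44, 2.36 and 2.46 in day 13 GFP+ cells, 2.16, 2.30 and 2.22 in day 13 GFP- cells, and 3.10, 3.21 and 2.93 in the aorta. The aortic range overlapped that of iPSC and lay above both day 13 sorts. It was lower than in the aorta in day 13 GFP+ cells (-0.66, adjusted p = 0.0016) and in day 13 GFP- cells (-0.85, adjusted p = 0.00015), with all values at the low end, and its difference of -0.29 between day 0 and the aorta did not pass (adjusted p = 0.105).

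At the first step, 8 of the 10 genes were lower at day 5 than at day 0 and none higher, where 13.9% of all probe sets were lower. The median difference of the members was -0.91, against -0.01 over all probe sets. Csf1r differed by -0.46 (adjusted p = 0.124) and Ptprc by -0.23 (adjusted p = 0.195). Laptm5, Cd68, Fcer1g and Spi1 had the smallest adjusted p, followed by Cd3e (-0.83, adjusted p = 0.0184), Tyrobp (-0.43, adjusted p = 0.0328), Cd14 (-1.07, adjusted p = 0.0354) and Adgre1 (-0.42, adjusted p = 0.0389). The calls of Cd3e, Tyrobp, Cd14 and Adgre1 were lost when single arrays were left out. Cd14 was lost without day 0 replicate 3 or 6 or any 1 day 5 replicate (adjusted p from 0.0595 to 0.125), and Cd3e without day 0 replicate 3 (-0.58, adjusted p = 0.105) or day 5 replicate 3 (adjusted p = 0.0633) or 5 (adjusted p = 0.0604). Tyrobp and Adgre1 were lost without day 0 replicate 5 or 6 or day 5 replicate 3 or 6, with adjusted p up to 0.143 for Tyrobp and 0.193 for Adgre1. Both were also lost in limma fits of only these groups and after median centring, repeated quantile normalization, cyclic loess or centring on olfactory receptors (adjusted p from 0.0538 to 0.0991). Cd14 was lost after repeated quantile normalization (adjusted p = 0.0616) and after centring on olfactory receptors (adjusted p = 0.0612).

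Among 20 other genes shared by most leukocytes, 7 were lower at day 5 than at day 0 and none higher. Inpp5d, the SHIP1 phosphatase, fell by 4.23 (mean 3.37 at day 5 against 7.60 at day 0). The actin regulator Was (-0.93) and the kinase substrate Plek (-0.83) were also among them. Of 19 macrophage genes 5 were lower and none higher, led by Ctss, a lysosomal protease, which fell by 1.46, and followed by Folr2 (-1.15), C1qb (-1.06) and Mertk (-0.69). Of 16 T and NK cell genes 2 were lower, the kinases Zap70 (-1.10) and Lck (-0.48), and Cd28 was 0.73 higher. Of 14 granulocyte and mast cell genes none was called, and of 8 B cell genes Ebf1 alone was called (-0.96). Of 16 blood progenitor and erythroid genes 2 were higher and 2 lower, with the factors Runx1 higher (3.56) and Myb lower (-1.87). Of 8 pluripotency genes 7 were lower and 1 higher.

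Between day 5 and day 13 the counts of members called higher were near the share of all probe sets. None was called lower, where 16.9% of all probe sets were lower in GFP+ and 13.9% in GFP- cells. In GFP+ cells 2 of 10 were higher than at day 5 (Cd68, by 1.18, and Laptm5, by 0.80, adjusted p = 0.0494), where 14.3% of all probe sets were higher. In GFP- cells Cd68 alone was higher, by 1.42, which is 1 of 10 against 12% of all probe sets, and Laptm5 differed by 0.72 (adjusted p = 0.0872). The medians over the members were 0.21 in GFP+ and 0.03 in GFP- cells. Both comparisons share the day 5 samples. The Laptm5 call in GFP+ cells was lost without GFP+ replicate 3 (0.40, adjusted p = 0.278), without GFP+ replicate 5 (adjusted p = 0.0571) and without any 1 day 5 replicate (adjusted p from 0.0947 to 0.125).

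Over the same step Lcp1, an actin-bundling protein of leukocytes that other motile cells also make, was higher by 1.64 in GFP+ and by 3.24 in GFP- cells, and Arhgdib by 2.04 and 2.21. Of the 20 genes shared by most leukocytes 3 were higher and 1 lower in GFP+ cells, and 2 higher and none lower in GFP- cells. Of 19 macrophage genes Mertk, a receptor for apoptotic cells, was higher in both sorts, by 1.55 in GFP+ and 1.03 in GFP- cells, and Fcgr3 was 0.70 higher in GFP- cells. Of 14 ligands and partners of Csf1r and PU.1, 4 were higher in GFP+ cells (Maf by 4.02, Csf1 by 2.09, Egr2 by 1.47 and Cebpb by 0.65) and 2 in GFP- cells. Of 16 T and NK cell genes Cd28 was lower in both sorts and Cd8a was higher by 0.58 in GFP- cells, and none of 14 granulocyte and mast cell genes was called in either sort.

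No member was called between the day 13 GFP+ and GFP- cells, where 4.53% of all probe sets were called. The differences ran from -0.24 for Cd68 to 0.34 for Fcer1g, with a median of 0.13 against 0.01 over all probe sets. No member had an unadjusted p under 0.05 in this limma fit without pairing, and none was called in any other fit tried, the replicate block included. Because the replicate numbers were taken to pair these sorts, they were also compared within pairs, a fit of these 6 samples chosen after seeing the data. It called 2130 probe sets, against 1142 without the pairing, and 0 members. In 6 of the 10 members the 3 pairs had one sign, which held for 42% of all probe sets: Csf1r, Cd3e, Tyrobp, Fcer1g and Adgre1 were above and Cd68 was below in GFP+ cells. Fcer1g differed by 0.57, 0.30 and 0.15 in the pairs of replicates 3, 5 and 6, with an unadjusted p of 0.0251 and an adjusted p of 0.152, and Cd68 by -0.29, -0.32 and -0.098 (adjusted p = 0.273). The paired standard errors were 0.105 to 0.183. Beside them, Lcp1 was lower in GFP+ than in GFP- cells (-1.60, adjusted p = 0.00266), as was Fcgr3, an Fc receptor (-1.05, adjusted p = 0.00529), each the only call in its list of 20 shared leukocyte genes and 19 macrophage genes. Of 12 endothelial genes 3 were lower in GFP+ than in GFP- cells, Cdh5 (-2.10), Tek (-1.44) and Pecam1 (-1.28). The 12 averaged 4.32 to 4.46 in GFP+ samples and 4.87 to 5.08 in GFP- samples.

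**Figure D2:**
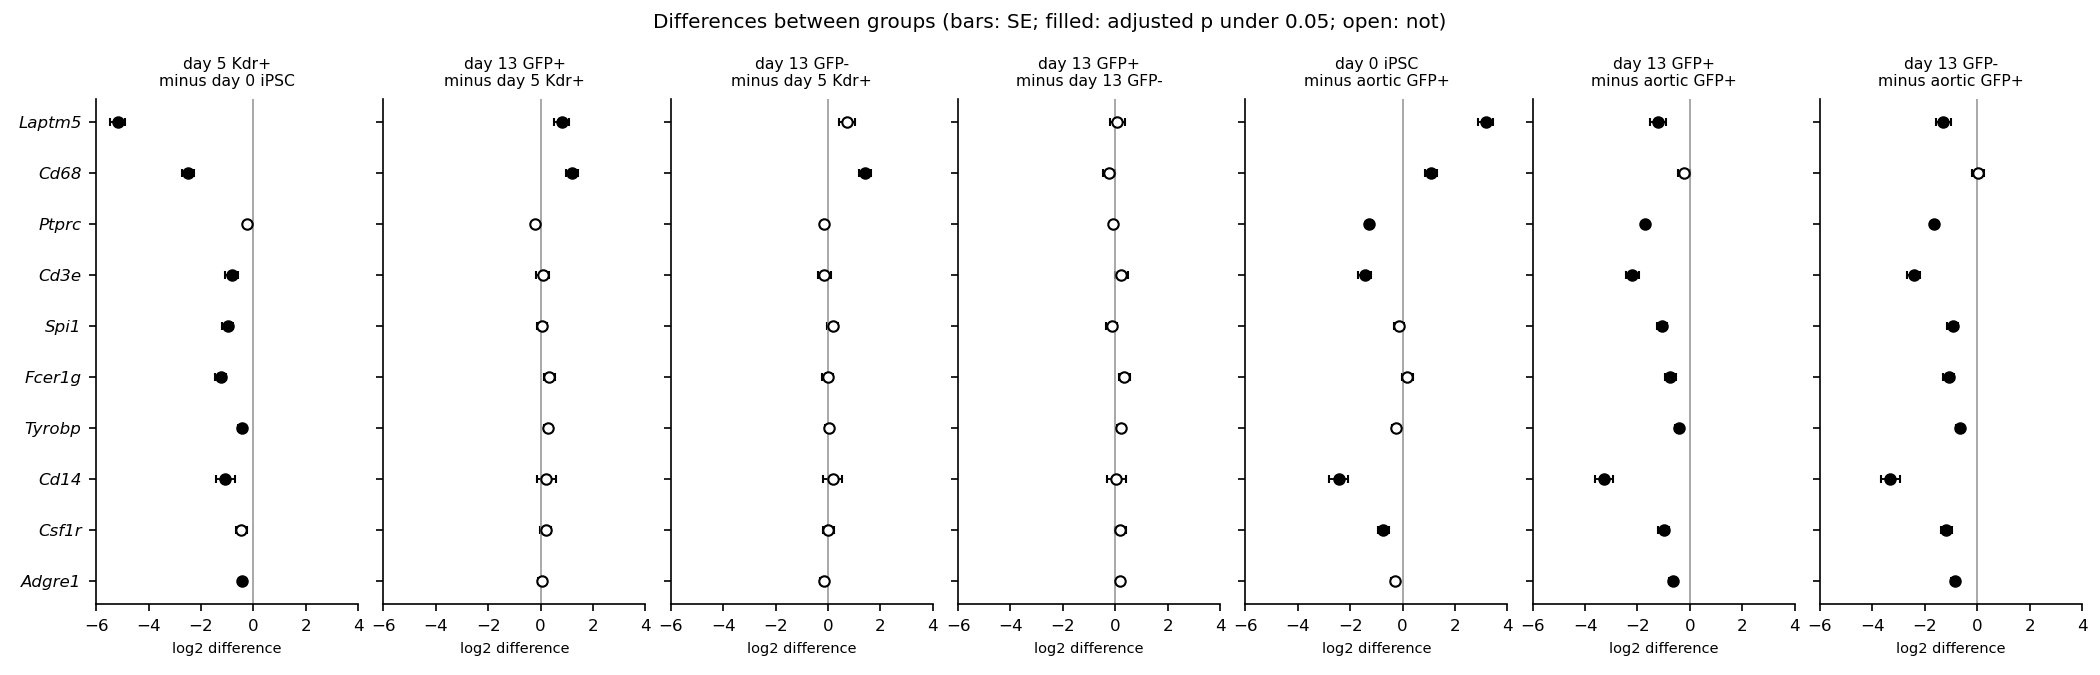
Log2 differences of the 10 members in 7 comparisons, first-named group minus the second, with standard errors from the limma fit; filled points pass an adjusted p of 0.05. Most points lie left of 0 at day 5 against day 0 and for both day 13 sorts against the aorta, and none is filled for day 13 GFP+ against GFP-.

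Day 0 iPSC and aortic cells differed in 6 of 10 members. Laptm5 and Cd68 were higher at day 0, 2 of 10 where 24.4% of all probe sets were higher. Cd14, Cd3e, Ptprc and Csf1r were lower, 4 of 10 where 23.3% were lower. The remaining 4 (Adgre1, Tyrobp, Spi1 and Fcer1g) differed by -0.29 to 0.17 without passing. The median was -0.28, against -0.07 over all probe sets. Csf1r was lost without aortic sample 2 (-0.52, adjusted p = 0.0505), and Adgre1 was called without day 0 replicate 6 (-0.42, adjusted p = 0.0282).

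Among the other blood cell lists, some were called in both directions between iPSC and aorta, and others were only lower at day 0. Of the 20 genes shared by most leukocytes 4 were higher and 6 lower at day 0 than in the aorta, with Inpp5d (4.18) among the higher and Plek (-1.22) and Cd52 (-0.88) among the lower. Of the 19 macrophage genes 8 were lower at day 0 and none higher, led by Mertk (-3.44) and Lyve1 (-2.81), a hyaluronan receptor of lymphatic endothelium and some vessel macrophages. Of 16 T and NK cell genes 5 were lower and 2 higher, of 14 granulocyte and mast cell genes 6 were lower, among them the mast cell protease genes Cpa3 (-1.52) and Mcpt4 (-0.85), and of 8 B cell genes 2 were lower, Ebf1 (-5.29) and Ms4a1 (-1.21). Ebf1 is known outside B cells too. The T and NK cell list and the granulocyte and mast cell list averaged at the low end of the arrays in all samples.

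Both day 13 sorts were below the aorta for 9 of the 10 members, all but Cd68. For GFP+ cells 17.7% of all probe sets were lower, and for GFP- cells 20.2%. The median member difference was -1.04 for GFP+ and -1.13 for GFP- cells, against -0.07 and -0.09 over all probe sets. Cd14 differed most, followed by Cd3e and Ptprc, and Laptm5 was 2.32-fold lower in GFP+ and 2.44-fold lower in GFP- cells. The calls in GFP+ cells with the largest adjusted p were those of Fcer1g (-0.74, adjusted p = 0.0103) and Tyrobp (-0.43, adjusted p = 0.0257). Fcer1g was lost without GFP+ replicate 6 (-0.61, adjusted p = 0.0552) or aortic sample 2 (-0.47, adjusted p = 0.0529), and Tyrobp without GFP+ replicate 5 (adjusted p = 0.0842) or 6 (adjusted p = 0.0724) or aortic sample 1 (adjusted p = 0.0612) or 2 (adjusted p = 0.0907). After centring each array on its olfactory receptor probe sets, a step chosen after seeing the data, 7 members were called in GFP+ cells, without Fcer1g (-0.54, adjusted p = 0.0731) and Tyrobp (-0.23, adjusted p = 0.279), and 9 in GFP- cells. Both sorts are set against the same 3 aortic samples.

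Those 3 aortic samples were uneven. In sample 2, 9 of the 10 members lay above their aortic mean, by 0.375 on average over the members, while samples 1 and 3 lay at -0.251 and -0.124. Macrophage genes averaged 3.87 to 4.32 across the aortic samples, against 3.29 to 3.42 in day 13 GFP+ and 3.33 to 3.38 in day 13 GFP- samples. Fibroblast genes averaged 7.92 to 8.87 in the aorta against 6.21 to 6.96 in GFP+ and 5.21 to 6.30 in GFP- samples, and endothelial genes averaged 5.40 to 5.75 in the aorta. The part of such other cells in the aortic levels of the members was not tested.

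In day 13 GFP+ cells 11 of 19 macrophage genes were lower than in the aorta and none higher, led by Lyve1 (-2.64), Mertk (-2.58), Ctss (-1.53) and the mannose receptor Mrc1 (-1.34). In GFP- cells 13 of the 19 were lower and none higher. Of the 20 genes shared by most leukocytes 7 were lower and 1 higher in each sort, with Plek (-1.80), Cd53 (-1.51) and Cd52 (-1.08) lower in GFP+ cells, and Lcp1 higher by 2.49 in GFP- cells. Of 16 T and NK cell genes 8 were lower in GFP+ and 9 in GFP- cells, and of 8 B cell genes 4 and 5, with Ms4a1 and Cd79a lower in GFP+ cells (-1.08 each). Of 14 granulocyte and mast cell genes 4 were lower in GFP+ and 5 in GFP- cells, with Cpa3 at -1.56 in GFP+ and -1.60 in GFP- cells. The T and NK cell list averaged 3.39 to 3.58 in the aorta, and the granulocyte and mast cell list 2.72 to 3.08. In every sample both averages lay below the 95th percentile of the olfactory receptor probe sets. These list counts were not tested after centring on those probe sets. Blood progenitor and erythroid genes were mixed, 4 higher and 5 lower of 16 in GFP+ cells, with Runx1 higher (1.69) and Cd34 lower (-2.08).

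**Figure D3:**
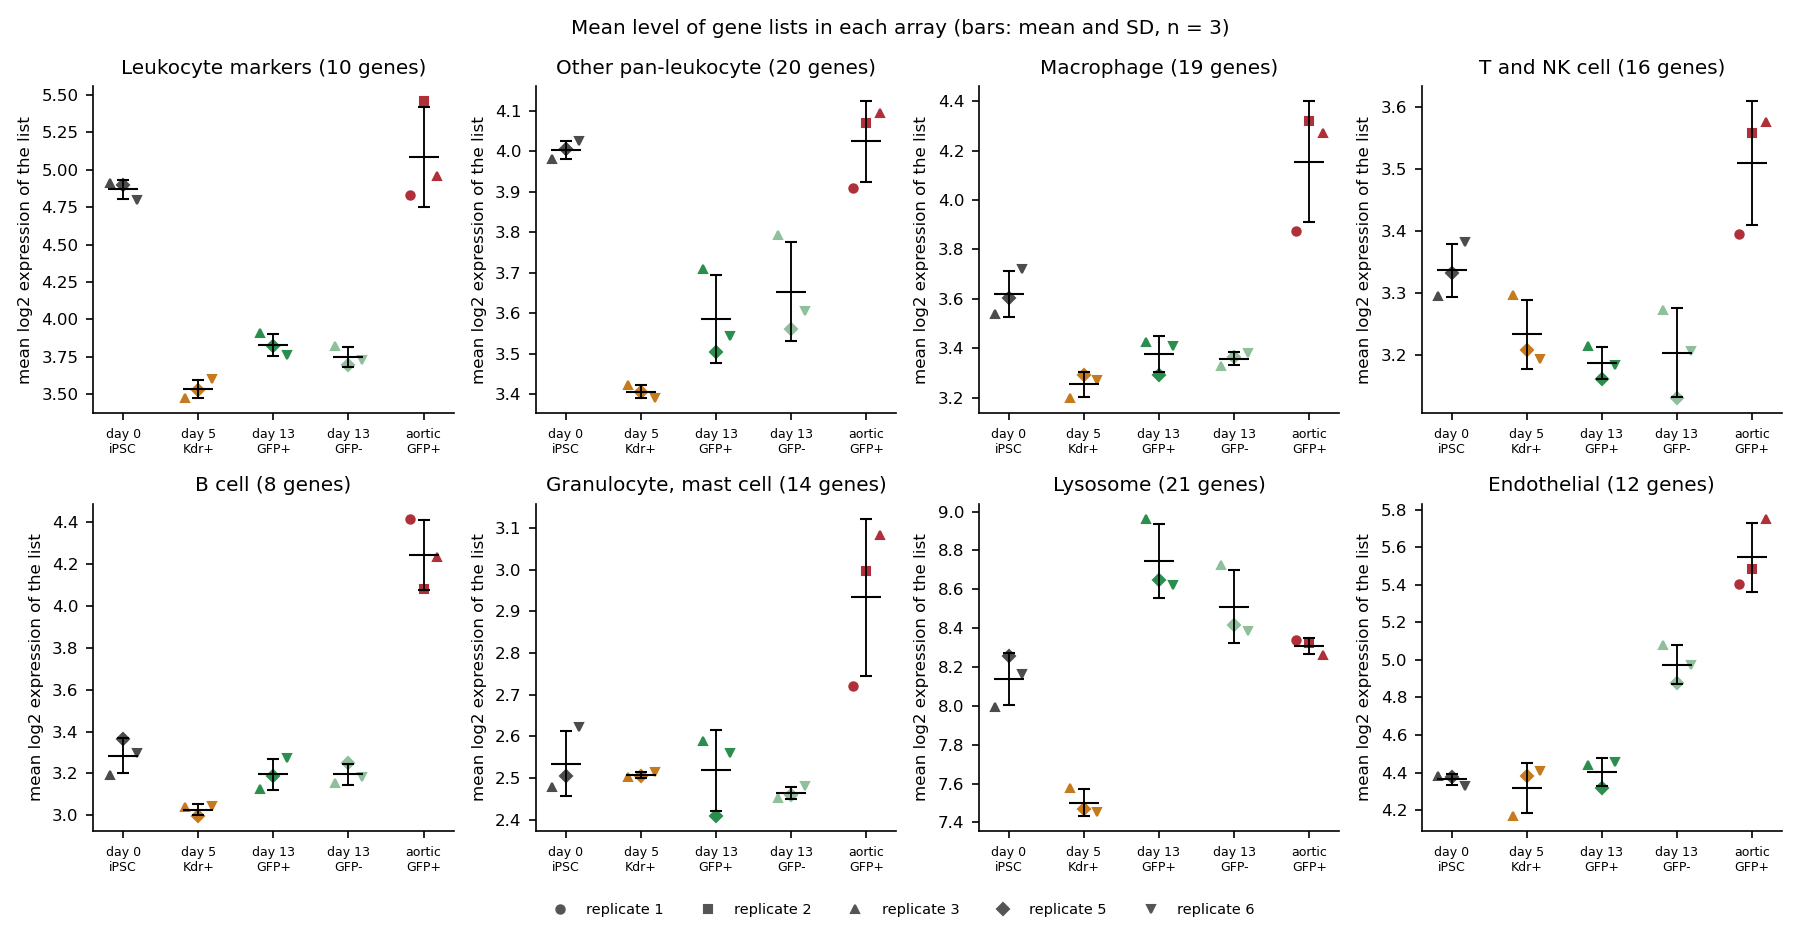
Mean log2 level of the members and of the lists of other genes (log2) in each sample of the 5 groups, from day 0 iPSC at the left to the aortic cells at the right; points are samples, and bars are group means with the SD (n = 3). The macrophage genes reach 3.87 to 4.32 in the aorta, above every day 0, day 5 and day 13 sample, and the lysosomal genes reach 8.62 to 8.96 in day 13 GFP+ cells.

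The members varied among themselves across the 15 samples, which share the 5 groups, so correlations describe the group pattern. Over the 45 pairs Pearson's r ran from 0.13 for Ptprc with Cd68 to 0.93 for Tyrobp with Adgre1. For the 8 members whose group means span at least 1 log2 unit, the probe sets closest in pattern included Smoc1, Tm6sf1 and Il17rc for Ptprc (r from 0.982 to 0.986), Zfp459, Dnajc6 and Cbx7 for Laptm5 (0.976 to 0.984), Thy1 and Plek for Cd3e (0.978 for Thy1), and Adamtsl4, Il15 and Parp9 for Cd14 (0.977 for Adamtsl4). Aox3, Mlkl and Mybpc1 were closest to Csf1r (0.954 for Aox3), Gch1, Xaf1 and Tesc to Fcer1g (0.952 for Gch1), and Dock6, Rhox5 and Gadd45a to Cd68 (0.947 for Dock6). Ctss, Pnldc1 and As3mt were closest to Spi1 (0.917 for Ctss).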

How the data were processed

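The authors deposited 1 log2 expression value per probe set and sample, made by RMA (background correction, quantile normalization and median polish) with the affy package (1.36.1, under R 2.15.1), per the submitters' processing notes. That the scale is log2 was inferred from the range of the values. The build was not given in the sources used here. Symbols came from RefSeq by Entrez Gene ID, else from the platform annotation, which left 1466 of 25206 probe sets unnamed. No filter was applied.

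All 15 samples were fitted in 1 limma model (limma 3.58.1, R 4.3.3) with a mean per group and moderated variances (10 residual and 5.09 prior degrees of freedom). Groups came from the labels, with replicates 3, 5 and 6 for the day 0, day 5 and day 13 cells and 1, 2 and 3 for the aorta. There were 7 comparisons, and 3 more served only to order the groups. The p-values were adjusted over all probe sets by Benjamini and Hochberg with a threshold of 0.05. Differences are the first-named group minus the second.

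The members and gene lists were chosen with earlier results of these data known. All members are named, from each list at most 4 called genes with the largest difference per comparison, plus stage genes and the 3 genes closest in pattern, without clone or predicted-gene names. Lists share some genes. A few genes that this rule picks are not reported here by name.

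Equal replicate numbers correlated at 0.397 to 0.597 between the day 13 sorts across genes in their deviations from group means. Unequal numbers there ran from -0.500 to 0.345, and replicates 5 and 6 correlated across the sorts at 0.345 and 0.278. Between other stages equal numbers correlated at -0.091 to 0.079, which does not show that those stages are unpaired. The labels state no pairing, and the numbers were taken to pair only the day 13 sorts. Data were simulated for day 5 against day 0 with 200 of 25206 genes changed. The fit found 13.4% of genes changed by 0.5, 76.1% changed by 1 and 100% changed by 2 on the log2 scale, with 1 false call among 127. In the real comparison 28.8% of probe sets were called, so the shares found there may differ.

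Alternatives were a fit of only the groups compared, weights per array, trended or robust moderation, median centring, repeated quantile normalization, cyclic loess, a filter on low levels, a replicate block, leaving out each sample and, chosen after seeing the data, centring on olfactory receptors and a paired fit of only the day 13 samples.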

Additional observations from a re-analysis of the deposited data

How the results depend on the processing

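No direction of a member's difference that passed the test was reversed under any alternative. Of the single-gene results under alternatives, 533 kept their side of the threshold, 49 lost it and 9 gained it. The 8 members called at day 5 against day 0 became 5 after repeated quantile normalization, 5 after centring on olfactory receptor probe sets (chosen after seeing the data) and 4 of the 4 members tested above the median level, and 4 to 6 when 1 sample was left out, but 9 with array weights and 9 with the replicate block, where Csf1r passed. The count was 6 after median centring, 6 after cyclic loess and 7 when only these 2 groups were fitted. The 2 called in day 13 GFP+ cells against day 5 became 1 when only these 2 groups were fitted, 1 after median centring, 1 after repeated quantile normalization and 1 after centring on olfactory receptors, and 1 to 2 when 1 sample was left out. The 1 called in day 13 GFP- cells against day 5 became 2 when only these 2 groups were fitted, 2 with array weights and 2 with the replicate block, in which Laptm5 passed (adjusted p = 0.0356), and stayed at 1 when 1 sample was left out. Between the day 13 sorts, where the numbers were taken to pair the samples, the replicate block gave 0 members, as did leaving out each sample. Over all probe sets the block gave 1462 calls with all samples but the aortic ones and 2130 with only the day 13 samples, against 1142 without it. The block could not be fitted for the aortic comparisons, whose numbers differ. Above the median level only 4 members were tested. They gave 2 calls at day 0 against the aorta, 3 in GFP+ and 3 in GFP- cells against it, as many as the same members had in the main fit. The rest of the 6, 9 and 9 calls were of members not tested there. Centring on olfactory receptors left 7 of 9 in GFP+ cells. Leaving out 1 sample gave 5 to 7, 7 to 9 and 9 calls for these comparisons, and 5 and 7 for the first 2 of them without aortic sample 2. The cause of these changes was not tested, apart from the fewer genes or samples. Differences of about 0.4 (Tyrobp, Adgre1) are near the limit of 3 arrays a group.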
